A study of Caenorhabditis elegans with 3 samples.

Results

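The aminoacyl-tRNA synthetase genes of Caenorhabditis elegans were followed on 2-colour DNA microarrays that compared RNA of early L4 hermaphrodites with RNA of a wild-type mixed reference. The L4 larva is followed by the adult. A single group of 3 worm preparations was hybridised, 1 per array; channel 2 held the L4 sample and channel 1 the reference. The labels state neither the strain of the L4 worms, nor what was mixed to make the reference, nor whether the preparations came from separate cultures, so the p-values cover the variation among these 3 arrays and nothing wider. Members were the genes whose probes the platform annotation gives to 1 symbol made of an amino acid letter, "ars" and the suffix -1 or -2. That gave 29 probes of 28 genes, out of 15159 genes tested, and all 28 had a value on every array. They cover 19 of the 20 amino acids; the tryptophan gene wars-1 and the genes fars-2, mars-2, nars-2 and yars-1 were not analysed here.

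Aminoacyl-tRNA synthetases join each amino acid to its tRNA, so that the ribosome can add it to a protein, and every cell that makes protein needs them. Mitochondria translate their own genome and need charged tRNAs of their own, which come either from a separate nuclear gene or from a single gene whose products go to both places. In this worm the suffix does not always give the form: aars-1 is the mitochondrial and aars-2 the cytosolic alanine enzyme, while for most other amino acids -1 is cytosolic and -2 mitochondrial. By what is known of the worm genes, 11 members were taken as cytosolic and 9 as mitochondrial, and 6 were called single-gene because the gene table holds no other protein-coding gene for their amino acid. The last 2 were set apart: cars-2 is listed as a pseudogene, and the form of vars-1 was not settled.

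Values were log2 ratios, read as early L4 over reference, with each array centred on its median. Which channel is the numerator is not stated; this reading is the likely one, since each description puts early L4 before the reference. "Higher" and "rose" mean a positive ratio with an adjusted p under 0.05 in limma with Benjamini-Hochberg adjustment over all 15159 genes; "lower" and "fell" mean the same with a negative ratio. The reference was not a replicated group, so its own variation was not estimated separately. Spot brightness was not used here, so the depth behind a ratio is unknown, and only 3 arrays limit the precision.

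Of the stage and tissue markers, 6 of 7 sperm genes rose and 7 of 8 oocyte and eggshell genes fell. All 4 cuticle and molting genes rose, as did 4 of 5 muscle, 3 of 4 intestinal and 2 of 5 germline genes, while 3 of 5 neuronal genes fell. Among 5 early embryonic genes, 2 fell and 1 rose, while 10.1% of all genes tested fell and 12.6% rose. RNA of these markers thus differed between early L4 worms and the reference, and its part in the synthetase ratios was not tested. In whole worms, more cells of a type and more RNA per cell cannot be told apart.

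Synthetase RNA was higher in early L4 for 9 of 28 genes and lower for 0, and 19 did not pass. Over all genes tested, 12.6% were higher and 10.1% lower, 22.7% together. With the ratio read the other way, these 9 genes would be lower and 0 higher, and the 2 shares of all genes would change places. Of the 9, 5 were cytosolic (iars-1, pars-1, aars-2, dars-1 and fars-1) and 4 single-gene (kars-1, gars-1, qars-1 and tars-1). None of the 9 mitochondrial genes passed in limma, although 3 of them had an unadjusted p under 0.05. The 9 genes that rose had mean log2 ratios from 0.86 to 1.58 and adjusted p-values from 0.000827 to 0.0275, and 6 of them rose at least 2-fold (8.52% of all genes did). The mean ratio was above 0 for 22 of the 28 (49.6% of all genes), and an unadjusted p under 0.05 was found for 13 (34.7% of all genes). The ratio was positive on all 3 arrays for 14 of the 28 (26.2% of all genes) and negative on all 3 for 1 (27.6%). The median of the 28 mean log2 ratios was 0.44, beside -0.01 over all genes tested. The number that rose was 13 without preparation 1 (14.9% of all genes in that fit), 6 without preparation 2 (8.42%) and 6 without preparation 3 (10.5%).

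**Figure D1:**
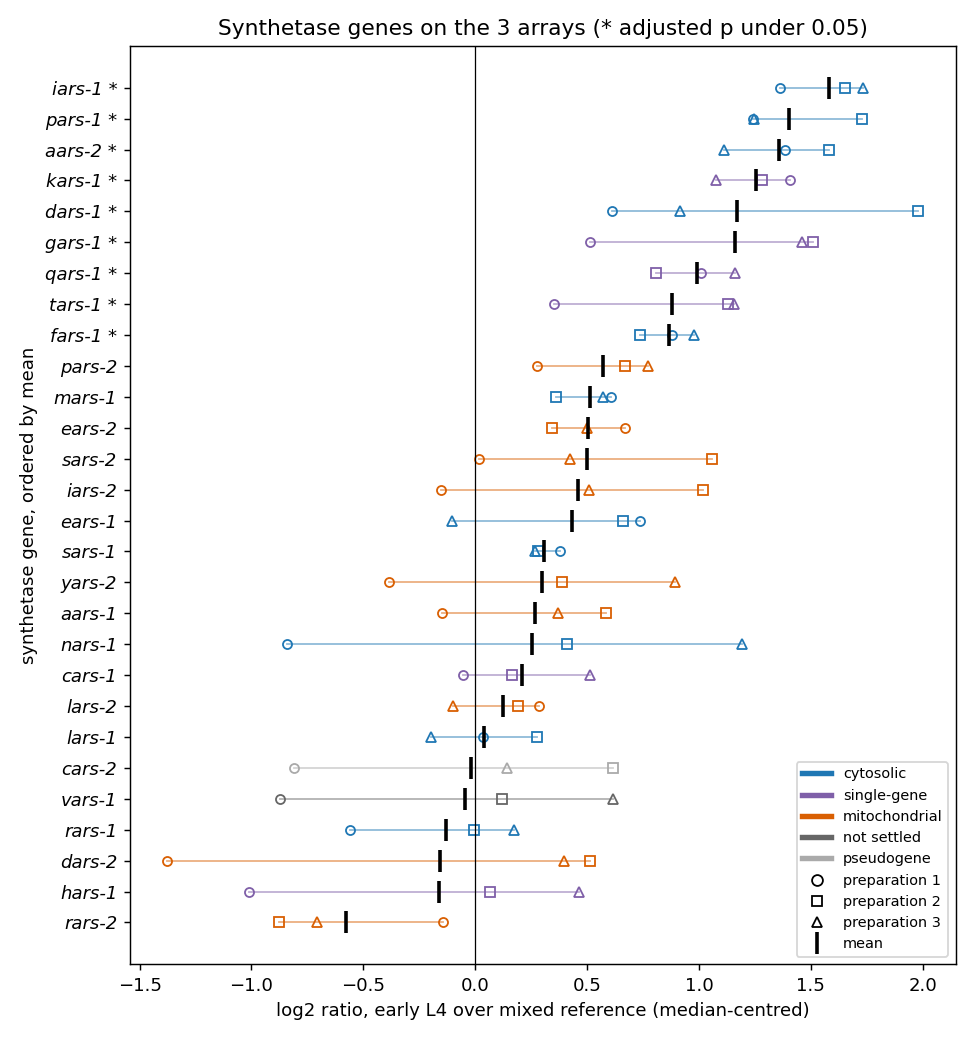
Log2 ratio of early L4 over the mixed reference (x axis, centred on the median of each array) for each of the 28 synthetase genes (y axis, ordered by mean). Open symbols are the 3 preparations, black ticks the means, colours the form of the enzyme and asterisks an adjusted p under 0.05; the 9 genes with asterisks had 3 positive values each, and no mitochondrial gene is among them.

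Among the cytosolic enzymes, the isoleucine gene iars-1 (R11A8.6) had the highest mean of the family. Its log2 ratios were 1.36, 1.65 and 1.73 for preparations 1, 2 and 3, a mean of 1.58 ± 0.19 (SD, n = 3), 3.00-fold (limma adjusted p = 0.000827). All 3 arrays were well above 0 and close together, and the mean lay at the 96.5th percentile of all genes tested. pars-1 (T20H4.3), which charges proline, had 1.24, 1.73 and 1.25, a mean of 1.40 ± 0.28 and 2.65-fold (adjusted p = 0.00182). In mammals the cytosolic proline and glutamate enzymes are joined in a single protein, whereas the worm has separate genes, pars-1 and ears-1. The alanine gene aars-2 (F28H1.3) had 1.38, 1.58 and 1.11, a mean of 1.36 ± 0.24 and 2.57-fold (adjusted p = 0.002). These 3 genes were the only members above the 95th percentile of all genes.

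The aspartate gene dars-1 (B0464.1) had 0.61, 1.98 and 0.92 on the 3 arrays, a mean of 1.17 ± 0.72 (SD, n = 3) and 2.25-fold (limma adjusted p = 0.0152). Its value for preparation 2 stood apart, and without that preparation the mean was 0.76 and the call was lost (adjusted p = 0.151). fars-1 (T08B2.9), a subunit of the cytosolic phenylalanine enzyme, had 0.88, 0.74 and 0.98, a mean of 0.86 ± 0.12 and 1.82-fold (adjusted p = 0.0166). The 3 values lay close together, but with 2 arrays the call was lost without preparation 2 (adjusted p = 0.0651) and without preparation 3 (0.104). The other subunit is encoded by fars-3 (F22B5.9), whose suffix keeps it out of the members. It had 0.80, 1.59 and 0.99, a mean of 1.13 ± 0.41 and 2.19-fold (adjusted p = 0.00785), so both subunit genes rose.

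The 6 other cytosolic genes did not pass. The methionine gene mars-1 (F58B3.5), whose enzyme also supplies the initiator tRNA, had 0.61, 0.36 and 0.57, a mean of 0.51 ± 0.13 (limma adjusted p = 0.12). ears-1 (ZC434.5), for glutamate, had 0.74, 0.66 and -0.10, a mean of 0.43 ± 0.46 (adjusted p = 0.246), with preparation 3 alone below 0. The serine gene sars-1 (C47E12.1) had the narrowest spread of the family, with 0.38, 0.28 and 0.27, a mean of 0.31 ± 0.06 (adjusted p = 0.341). nars-1 (F22D6.3), for asparagine, had -0.84, 0.41 and 1.19, so its arrays disagreed in sign, with a mean of 0.25 ± 1.02 (adjusted p = 0.649); without preparation 1 it rose, with 0.80 (adjusted p = 0.0485). The leucine gene lars-1 (R74.1) was near 0 on every array, with 0.03, 0.28 and -0.20 and a mean of 0.04 ± 0.24 (adjusted p = 0.924). The arginine gene rars-1 (F26F4.10) had the lowest cytosolic mean, with -0.56, -0.01 and 0.17, a mean of -0.13 ± 0.38 (adjusted p = 0.737). The 11 cytosolic genes thus ran from -0.13 to 1.58, with a median of 0.51; that median was 0.80 without preparation 1. The count of higher cytosolic genes was 3 of 11 without preparation 2.

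Of the 6 single-gene enzymes, 4 rose, beside 12.6% of all genes tested. kars-1 (T02G5.9), for lysine, had 1.41, 1.28 and 1.08, a mean of 1.25 ± 0.17 (SD, n = 3) and 2.39-fold (limma adjusted p = 0.00277). In mammals the lysine and glycine enzymes of cytosol and mitochondria come from the same gene. The glycine gene gars-1 (T10F2.1) had 0.51, 1.51 and 1.46, a mean of 1.16 ± 0.56 and 2.24-fold (adjusted p = 0.00999), with preparation 1 the lowest. The glutamine gene qars-1 (Y41E3.4) had 1.01, 0.81 and 1.16, a mean of 0.99 ± 0.18 and 1.99-fold (adjusted p = 0.00912). Animal mitochondria make their glutaminyl-tRNA by amidation of a charged glutamate, so this enzyme serves the cytosol. tars-1 (C47D12.6), for threonine, had 0.35, 1.13 and 1.16, a mean of 0.88 ± 0.46 and 1.84-fold (adjusted p = 0.0275). The calls of qars-1 (adjusted p = 0.0586) and tars-1 (0.147) were lost without preparation 3, and that of tars-1 also without preparation 2 (0.161), so 2 of 6 single-gene enzymes passed without preparation 3.

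The other single-gene enzymes were hars-1 and cars-1. The histidine gene hars-1 (T11G6.1) had -1.01, 0.06 and 0.46, with preparation 1 far below the others and a mean of -0.16 ± 0.76 (limma adjusted p = 0.739). cars-1 (Y23H5A.7), for cysteine, had -0.06, 0.16 and 0.51, a mean of 0.21 ± 0.29 (adjusted p = 0.561). Its pseudogene relative cars-2 (Y23H5A.1) had -0.81, 0.61 and 0.14, a mean of -0.02 ± 0.72 (adjusted p = 0.972). Probes of cars-1 and cars-2 may share RNA, so neither value is certain to belong to 1 of them. Leaving cars-2 out of the members, an alternative chosen after seeing the data, left the count of higher genes at 9 of 27.

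The means of the 9 mitochondrial genes ran from -0.58 to 0.57, with a median of 0.30. pars-2 (T27F6.5), for proline, had the highest, with 0.28, 0.67 and 0.77 and a mean of 0.57 ± 0.26 (SD, n = 3; limma adjusted p = 0.0959). It was the only member with 2 probes, and they disagreed: 1 had 0.86 ± 0.34 (adjusted p = 0.0235 on its own) and the other 0.29 ± 0.86 (adjusted p = 0.561), the gap lying in preparation 1, at 1.22 and -0.67. The glutamate gene ears-2 (T07A9.2) had 0.67, 0.34 and 0.50, positive on every array, with a mean of 0.50 ± 0.16 (adjusted p = 0.127). sars-2 (W03B1.4), for serine, had 0.02, 1.06 and 0.42, a mean of 0.50 ± 0.53 (adjusted p = 0.193). The isoleucine gene iars-2 (C25A1.7) had -0.15, 1.02 and 0.51, a mean of 0.46 ± 0.59 (adjusted p = 0.251). In both sars-2 and iars-2, preparation 1 was the lowest and preparation 2 the highest.

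The tyrosine gene yars-2 (K08F11.4) had -0.38, 0.39 and 0.89, a mean of 0.30 ± 0.64 (limma adjusted p = 0.481). aars-1 (W02B12.6), for alanine, had -0.15, 0.59 and 0.37, a mean of 0.27 ± 0.38 (adjusted p = 0.459). In both genes preparation 1 alone was below 0. The leucine gene lars-2 (ZK524.3) had 0.29, 0.19 and -0.10, a mean of 0.13 ± 0.20 (adjusted p = 0.726). dars-2 (F10C2.6), for aspartate, had -1.38, 0.51 and 0.40, the widest spread of the family, with a mean of -0.16 ± 1.06 (adjusted p = 0.793). The arginine gene rars-2 (C29H12.1) was the only member below 0 on all 3 arrays, with -0.14, -0.88 and -0.71 and a mean of -0.58 ± 0.38 (adjusted p = 0.11).

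The count of 0 mitochondrial calls changed when preparation 1 was left out. Without it, 3 of the 9 rose, beside 14.9% of all genes in that fit: iars-2 (mean log2 ratio 0.76, limma adjusted p = 0.0381), pars-2 (0.72, 0.0319) and sars-2 (0.74, 0.0497). In the same fit rars-2 fell, with -0.79 (adjusted p = 0.0234), beside 11% of all genes, and the other 5 did not pass. Higher calls over all genes were 12.6% with all 3 arrays and 14.9% in that fit. Higher cytosolic genes went from 5 to 6 of 11, and single-gene enzymes stayed at 4 of 6. Whether the added calls are particular to the mitochondrial genes was not tested. With all 3 arrays, 1 of the 2 probes of pars-2 also passed when probes were not averaged. Without preparation 2 or without preparation 3, 0 of the 9 passed. By preparation, in the order 1, 2 and 3, the mitochondrial genes had medians of -0.14, 0.51 and 0.42 and the cytosolic genes 0.61, 0.66 and 0.92. The mitochondrial median over preparations was 0.48 without preparation 1 and 0.18 without preparation 2. Preparation 1 gave the lowest value for 17 of the 28 members (60.7%), beside 40.8% of all genes with 3 values. It did so for 6 of the 9 mitochondrial against 5 of the 11 cytosolic genes. The share was similar for cytosolic (60.3%) and mitochondrial (55.6%) ribosomal protein genes and for tRNA processing genes (61.1%). For elongation factors it was 25%. A low preparation 1 was thus not particular to the synthetases. Whether the share of higher genes differed between the forms was not tested.

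**Figure D2:**
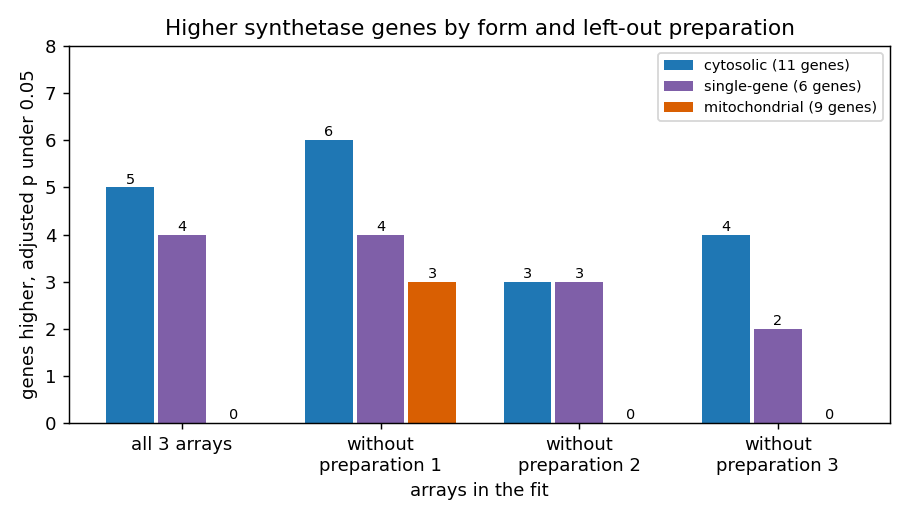
Number of synthetase genes higher in early L4 at an adjusted p under 0.05 (y axis) in the fit with all 3 arrays and in the fits without each preparation (x axis), by form of the enzyme. Bars start at 0 and carry their counts; the 3 mitochondrial calls appear in the fit without preparation 1.

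Both forms were measured for 8 amino acids, so the cytosolic and the mitochondrial gene could be set against each other on the same arrays. The cytosolic gene had the higher log2 ratio on all 3 arrays for 4 amino acids, and the sign of the difference was mixed for the other 4. With 3 arrays an exact two-sided sign-flip test cannot give a p below 0.25, and no other test of these differences was run, so they are given as a description. For aspartate, dars-1 exceeded dars-2 by 1.99, 1.47 and 0.52 on the log2 scale on the arrays of preparations 1, 2 and 3, a mean difference of 1.32 ± 0.74 (SD, n = 3). For isoleucine the difference was 1.52, 0.63 and 1.23, a mean of 1.12 ± 0.45. For alanine it was 1.53, 1.00 and 0.74, a mean of 1.09 ± 0.40, and here the gene with the suffix -2 is the higher, cytosolic one. For proline it was 0.96, 1.06 and 0.47, a mean of 0.83 ± 0.31. Here pars-2 is the average of 2 probes that disagreed for preparation 1, at 1.22 and -0.67, where pars-1 had 1.24. For each of these 4 amino acids the cytosolic gene was among those that rose.

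Arginine had a mean difference of 0.45 ± 0.75 (SD, n = 3), with -0.42, 0.87 and 0.88, where preparation 1 opposed the others. Like that for arginine, the differences for glutamate (-0.07 ± 0.48), leucine (-0.09 ± 0.17) and serine (-0.19 ± 0.57) were smaller than their own spread. For these last 3 amino acids the mitochondrial gene had the slightly higher mean. The median difference over the 8 pairs was 0.64. Taken over all cytosolic and all mitochondrial members, the difference of the medians was 0.75, 0.15 and 0.49 on the 3 arrays, a mean of 0.46 ± 0.30.

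**Figure D3:**
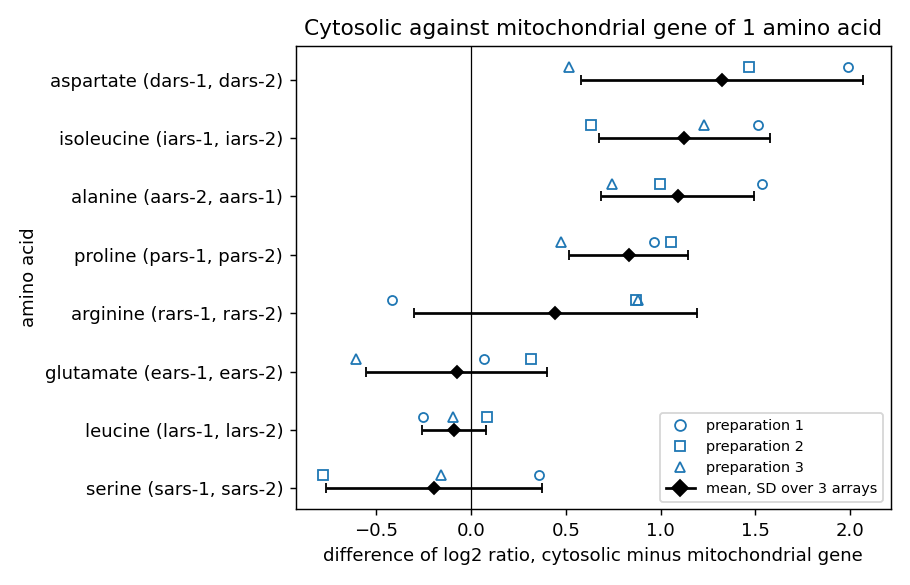
Difference of the log2 ratio, cytosolic minus mitochondrial gene (x axis), for the 8 amino acids with both genes measured (y axis). Open symbols are the 3 preparations and diamonds with bars the mean and SD; for aspartate, isoleucine, alanine and proline all 3 symbols lie right of 0.

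Valine is charged by the products of glp-4, known from mutants that lack a proliferating germ line, and vars-1. vars-1 (ZC513.4) had -0.87, 0.12 and 0.62, a mean log2 ratio of -0.05 ± 0.76 (SD, n = 3; limma adjusted p = 0.931). glp-4 (Y87G2A.5), outside the symbol pattern, had a mean of 0.48 ± 0.43 over 2 probes (adjusted p = 0.187). Its probes disagreed, with 0.12 ± 0.75 (adjusted p = 0.811 on its own) and 0.84 ± 0.18 (adjusted p = 0.0201). For both valine genes preparation 1 was the lowest.

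In mammals, some cytosolic synthetases are held in a multi-enzyme complex. Worm genes of those enzymes were ears-1, pars-1, iars-1, lars-1, mars-1, qars-1, rars-1, kars-1 and dars-1. Of these 9, 5 rose, with a median log2 ratio of 0.99; of the 8 other cytosolic and single-gene enzymes 4 rose, with a median of 0.59. Over all genes tested, 12.6% rose. In at least 1 fit with a preparation left out, the calls of dars-1 and qars-1 were each lost. Outside the complex, so were those of fars-1 and tars-1. The members of the complex ran from -0.13 for rars-1 to 1.58 for iars-1, so they spread over most of the range of the family. Whether these enzymes share a complex in the worm was not examined.

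Other genes of translation were set beside the synthetases. Of 63 cytosolic ribosomal protein genes, 24 rose and 0 fell in limma, beside 12.6% and 10.1% of all genes. An unadjusted p under 0.05 was found for 36 (34.7% of all genes), and the median log2 ratio was 0.64. The 24 became 39, 8 and 13 without preparations 1, 2 and 3 (14.9%, 8.42% and 10.5% of all genes in those fits). rpl-9 and rpl-4, of the large subunit, led by adjusted p, with 1.38 ± 0.27 and 1.37 ± 0.22 (SD, n = 3; adjusted p = 0.00198 and 0.00188). Of 45 mitochondrial ribosomal protein genes, 6 rose (13.3%, near the 12.6% of all genes) and 1 fell (10.1% of all genes), with a median of 0.36. Without preparation 1, 15 rose (14.9% of all genes in that fit), against 2 without preparation 2 (8.42%). mrps-28 had 1.20 ± 0.36 (adjusted p = 0.00502) and mrpl-30 1.22 ± 0.47 (0.00615), and the gene that fell, mrps-11, had -1.10 ± 0.47 (0.0103). On both the ribosomal and the synthetase side the cytosolic list had the higher median, by description only.

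Of 8 measured factors that deliver charged tRNAs or move the ribosome, 4 rose and 0 fell in limma. Over all genes tested, 12.6% rose and 10.1% fell. An unadjusted p under 0.05 was found for 7 (34.7% of all genes), and the median log2 ratio was 0.72. eef-1A.2 (R03G5.1), which brings charged tRNAs to the cytosolic ribosome, had 2.01, 1.48 and 1.40, a mean of 1.63 ± 0.33 (SD, n = 3; adjusted p = 0.000912). The list also named eef-1A.1, which had no value here. Whether the probe of eef-1A.2 also takes up RNA of eef-1A.1 was not tested. The translocation factor eef-2 had 0.72 ± 0.22 (adjusted p = 0.0398). The mitochondrial factors tsfm-1, with 0.89 ± 0.37 (adjusted p = 0.0212), and tufm-2, with 0.71 ± 0.06 (0.0381), also rose. The 4 became 1 without preparation 2 (8.42% of all genes in that fit) and 2 without preparation 3 (10.5%). Among 18 measured genes listed for tRNA processing and modification, 0 rose and 1 fell in limma, beside 12.6% and 10.1% of all genes. Of the 18, 3 had an unadjusted p under 0.05, and the median was -0.05. The gene that fell was elpc-4, of the Elongator complex that modifies the wobble base of tRNAs, with -1.09 ± 0.39 (adjusted p = 0.0086). Other measured Elongator genes did not pass: elpc-2 had -0.30 ± 0.53 (adjusted p = 0.443) and elpc-3 -0.01 ± 0.72 (0.977). cka-2, among these 18, encodes a choline kinase and does not belong there by function.

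**Figure D4:**
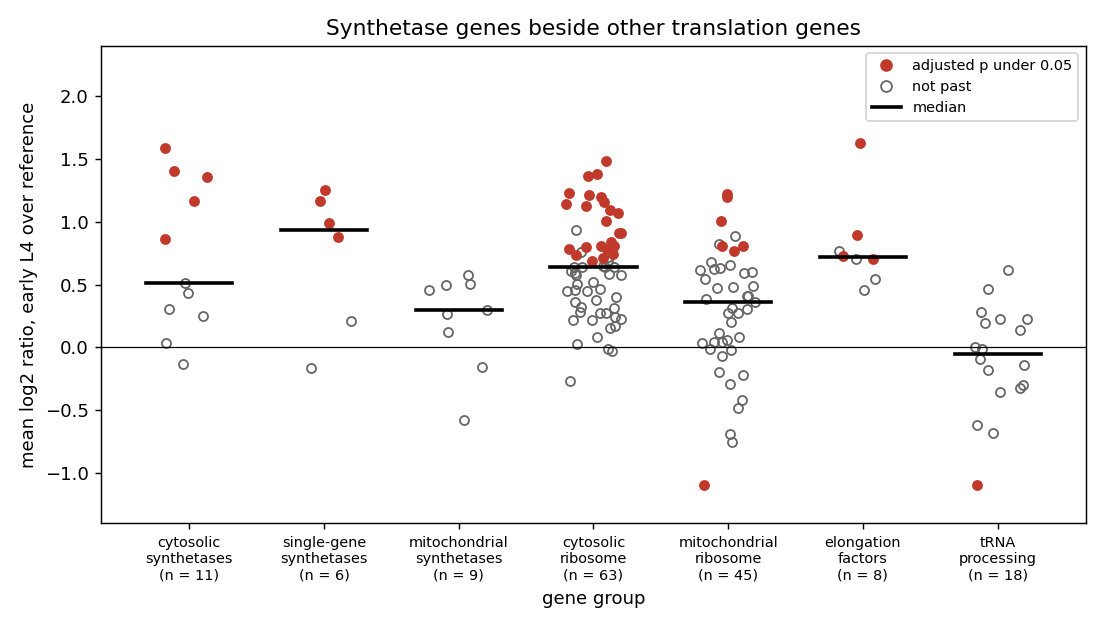
Mean log2 ratio over 3 arrays, early L4 over the reference (y axis), of each gene in 7 groups (x axis, with the number of genes). Filled points passed an adjusted p under 0.05 and bars are group medians; medians lay at 0.51 for cytosolic, 0.94 for single-gene and 0.30 for mitochondrial synthetases, and at -0.05 for tRNA processing.

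Uncharged tRNA is sensed by the kinase GCN-2, and translation of the transcription factor ATF-4 follows; in mammals synthetase genes are among the targets of ATF4. Of 6 measured genes on that list, 1 rose (16.7%, beside 12.6% of all genes) and 1 fell (beside 10.1%), so both counts lay near those shares. atf-4 (T04C10.4) had 1.16, 1.56 and 0.65, a mean log2 ratio of 1.12 ± 0.46 (SD, n = 3) and 2.18-fold (limma adjusted p = 0.00888). pek-1 (F46C3.1), the kinase that senses endoplasmic reticulum stress, had -1.22, -0.59 and -0.60, a mean of -0.80 ± 0.36 (adjusted p = 0.033). gcn-2 had 0.19 ± 0.68 (adjusted p = 0.668). These are RNA values, so translation of ATF-4 was not measured. A link between this list and the synthetase ratios was not tested. Without preparation 1, 3 genes of the list rose and 0 fell, beside 14.9% and 11% of all genes in that fit. Without preparation 2, 0 rose (beside 8.42%) and 0 fell.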

How the data were processed

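Per array, the authors deposited a log2 ratio of channel signals for each probe. At least 99.965% of them, raised as powers of 2, were whole thousandths within 0.01, so logs were taken of ratios kept to 3 decimals. Array medians as deposited were 0.05, -0.08 and -0.02. Dyes, background correction, normalization and direction: not given in the sources used here. Probes were named from the platform annotation, which is old, and matched to the WBcel235 gene table by gene number (15569) or symbol (86 of 15655 probes with 1 symbol). Each array was centred on its median, probes of a gene were averaged, and genes with values on at least 2 arrays were tested against 0 with limma 3.58.1 in R 4.3.3 (lmFit, eBayes; 2 residual and 7.59 prior degrees of freedom), after a check on simulated data. Alternatives were uncentred ratios, quantile normalization, genes with 3 values, trend and robust settings, single probes, each preparation left out and other assignments of the form. No gene set was tested. All 28 members are given with their values, beyond the rule for named genes (those past the threshold and both genes of each pair); of other lists, the 2 smallest adjusted p-values and genes chosen after their values were seen. The members and lists were chosen with earlier results of these data known. No sequences are printed.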

Additional observations from a re-analysis of the deposited data

How the results depend on the processing

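All 9 higher synthetase genes kept direction, which their 3 positive values fix when a preparation is left out, and iars-1, pars-1, aars-2, kars-1 and gars-1 kept their call in every alternative run. The call of gars-1 was close to the threshold without preparation 2 (limma adjusted p = 0.0481). The count of 9 stayed at 9 with genes on all 3 arrays, with uncentred ratios, after quantile normalization and with trend and robust settings, and was 10 with each probe on its own. Leaving out 1 preparation at a time gave 6 to 13 higher and 0 to 1 lower synthetase genes, 3 to 6 higher cytosolic, 2 to 4 higher single-gene, and 0 to 3 higher and 0 to 1 lower mitochondrial genes. It gave 1275 to 2259 higher genes of all tested, 8 to 39 higher cytosolic and 2 to 15 higher and 1 to 3 lower mitochondrial ribosomal genes, 1 to 5 higher elongation factors, 0 to 2 higher of fars-3 and glp-4, and 0 to 3 higher and 0 lower genes of the uncharged tRNA list. Elongation factors numbered 2 higher with trend and robust settings, and mitochondrial ribosomal genes 2 lower after quantile normalization. The cytosolic median ranged from 0.59 to 0.80, and the mitochondrial from 0.18 to 0.48, with 1 preparation left out. The cytosolic median was 0.86 with single-gene enzymes counted in it. Taking the form from the suffix turned the alanine difference to -1.09 by construction. Among genes that did not pass with all 3 arrays, quantile normalization turned the mean of cars-2 (0.031), lars-1 (-0.0037) and vars-1 (0.045). With 1 preparation left out, means ran from -0.33 to 0.38 for cars-2, -0.49 to 0.46 for dars-2, -0.47 to 0.26 for hars-1, -0.28 to 0.083 for rars-1 and -0.38 to 0.37 for vars-1, each positive without preparation 1, from -0.082 (without 2) to 0.155 for lars-1, and from -0.22 (without 3) to 0.80 for nars-1. None of these passed where its sign turned. The cause was not tested, beyond the fewer arrays of such fits. No paired comparison between groups was possible because only a single group exists.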

Other observations

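Synthetases fall into class I and class II by the fold of their catalytic domain. Of the 10 cytosolic and single-gene enzymes of class II, 7 rose in limma, with a median log2 ratio of 1.02, and of the 7 of class I, 2 rose (iars-1 and qars-1), with a median of 0.43. Over all genes tested, 12.6% rose. The calls of dars-1, fars-1 and tars-1 (class II) and qars-1 (class I) were each lost in at least 1 fit with a preparation left out. The grouping by class was made with earlier results of these data known, and the difference was not tested.

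The values of the 28 members correlated across the arrays with Pearson's r of 0.59 for preparations 1 and 2, 0.44 for 1 and 3, and 0.74 for the last pair. Over 15128 genes with 3 values r was 0.68, 0.64 and 0.81 in that order. Genes are not independent replicates, and all arrays have a mixed reference in channel 1. The SD over arrays had a median of 0.24 for the 9 synthetase genes that rose, 0.38 for the 19 that did not pass, and 0.36 for all genes tested; a small SD favours a call, so the first value follows in part from the test.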
